A study of Mus musculus with 24 samples.

Results

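The 9S/T-A and WT forms of ATOH1 were compared in sorted cells of the mouse colon, using 12 of the 24 RNA-seq libraries of the series, 6 per genotype, chosen by their group labels. All the mice behind these libraries were adults on a C57BL/6 background, homozygous for a knockin at the endogenous Atoh1 locus with CreERT2 downstream of the coding sequence, and heterozygous for a Rosa26-tdTom reporter. The control allele Atoh1(WT)CreERT2 encodes wild-type ATOH1, and the Atoh1(9S/T-A)CreERT2 allele encodes a protein in which the 9 serine or threonine residues that precede a proline are replaced by alanine, so both groups carry the modified locus and neither is an unmodified mouse. Each mouse received 1 dose of 3 mg tamoxifen, and live EpCAM+ tdTom+ cells were sorted from crypt preparations the next day. Each genotype had 3 libraries labelled female and 3 labelled male, numbered 2 to 7. The series' design text speaks of 6 mice in all, with cells taken from both tissues, while the colon libraries number 12. The paper's legend gives n=6 for each genotype in its expression results, and no homozygous mouse can give libraries of both genotypes. The labels do not say which libraries came from the same mouse, so the p-values below measure the spread between these libraries. In such sorted bulk samples, fewer cells of a type and less RNA per cell cannot be told apart.

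ATOH1 is a basic helix-loop-helix (bHLH) transcription factor that pairs with E proteins, binds E-box DNA, and is required for the secretory lineage of the gut: goblet cells, Paneth cells, enteroendocrine cells and the precursors of these. Notch signalling represses it in neighbouring cells through HES factors, while Notch ligands are made by the Atoh1+ cells themselves. Phosphorylation of serine or threonine residues before a proline by cyclin-dependent kinases couples many bHLH factors to the cell cycle, and the comparison asks what changes in Atoh1+ colon cells when that phosphorylation is prevented.

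The sorted cells had the transcripts of colonic goblet cells. Muc2, the main gel-forming colonic mucin, was at 13157 to 23876 CPM in the 12 libraries (the gene's count relative to its library's TMM-scaled total), and Hoxb13, a hindgut homeobox gene, was at 202 to 374 CPM. Gata4, a regional factor of the proximal small intestine, was at no more than 0.923 CPM. Libraries held 44744217 to 65199866 gene counts, and Xist and Ddx3y went with the labelled sex in 12 of 12. Both libraries numbered 7, one of each genotype, stood apart from the rest on the first principal component, which held 37.1% of the variance. They also had 3458 and 3974 CPM summed over 8 nuclear-retained and splicing-factor RNAs (Malat1, Neat1, Srrm2, Ccnl2, Leng8, Pnisr, Rsrp1 and Luc7l3, a list chosen after these libraries were seen), against 841 to 1572 CPM in the other 10 libraries. Genotypes separated on the second component, which held 13.1% of the variance.

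Of 16997 genes tested, 39 rose and 15 fell in 9S/T-A colon cells at an edgeR quasi-likelihood adjusted p under 0.05, which is 0.318% of the genes (0.229% higher and 0.0883% lower). An unadjusted p under 0.05 was reached by 1497 genes, 4.37% of those tested being higher and 4.44% lower. Among the 54 called genes, 26 rose and 6 fell at least 2-fold. The 6 9S/T-A libraries did not overlap the 6 WT libraries in 48 of the 54 genes, against 1.12% of all genes tested. All 54 fold changes had the same sign in female and male libraries. Because the 54 genes were chosen by a test on these same libraries, both results largely follow from the choice. With both libraries numbered 7 left out, 75 genes were called, 50 of the 54 among them. Of the 54 calls, 27 held with each of the 12 libraries left out in turn, 19 were lost in 6 or more of these 12 fits, and the number called fell to 31 without WT replicate 2 and to 30 without WT replicate 5.

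**Figure D1:**
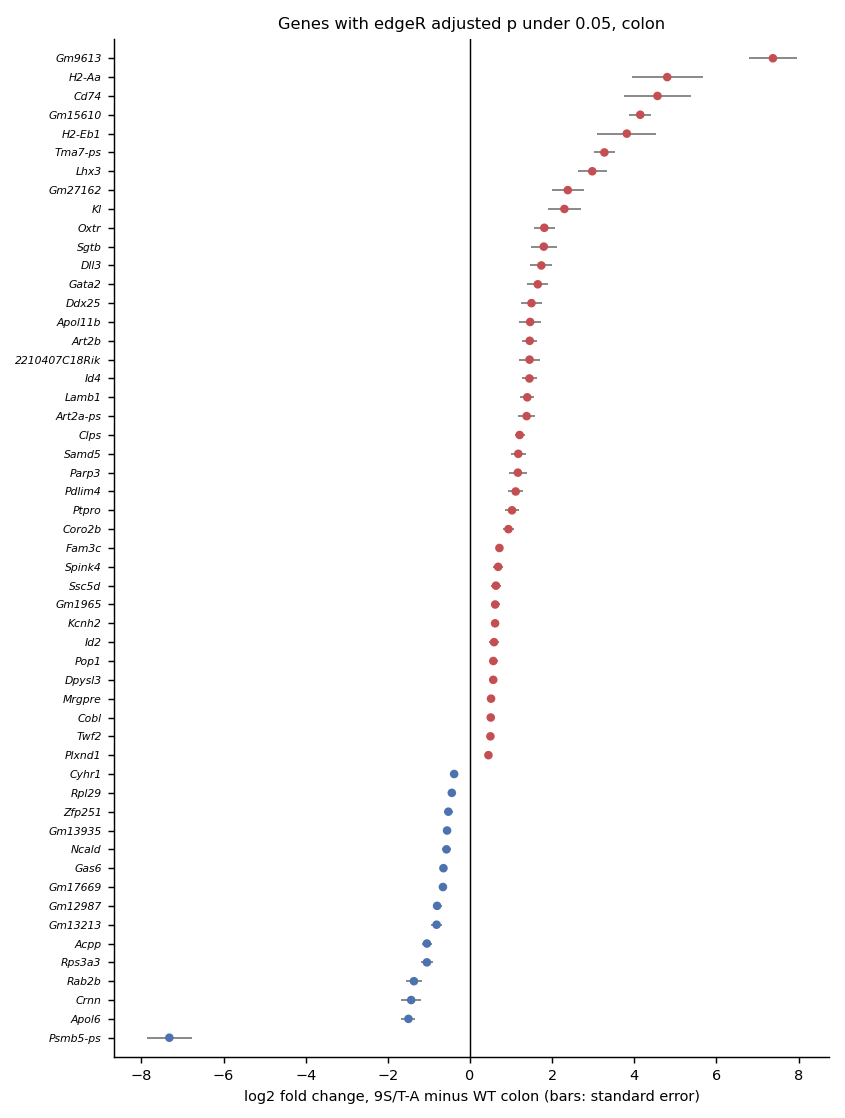
The log2 fold change of 53 of the 54 genes called in colon, 9S/T-A minus WT, on the horizontal axis, with bars for the standard error; red points rose and blue points fell. Most changes lie within 2 log2 units of 0, and the points farthest out are the processed pseudogenes Psmb5-ps and Gm9613, which had almost no counts in one genotype, so that their fitted positions depend on the prior count and are no measure of size.

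The targeted gene itself was transcribed in both genotypes. Atoh1 (chromosome 6) was at 107, 131 and 157 CPM (lowest, median and highest) in WT and at 89.9, 110 and 138 CPM in 9S/T-A libraries. The 2 ranges overlapped, and the log2 fold change of -0.24 ± 0.11 (SE) did not pass the test (adjusted p = 0.558). The counts are per gene, and they do not separate the mutant from the wild-type coding sequence. None of the 15 secretory transcription factors tested was called, and their median log2 fold change was -0.01, against 0.0049 over all genes. Spdef, which drives goblet maturation, was at a median of 425 CPM in WT and 461 in 9S/T-A, with overlapping ranges. Gfi1, a repressor that maintains secretory fate, had a log2 fold change of 0.20 ± 0.09 and Sox4 one of -0.18 ± 0.09, neither past the threshold.

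Of 30 goblet cell product genes, 1 rose and none fell, and 24 had a fold change above 0, with a median of 0.12. The gene that rose was Spink4, a Kazal-type serine protease inhibitor that goblet cells secrete. Spink4 was at 1795, 1884 and 2280 CPM in WT and at 2444, 3068 and 4220 in 9S/T-A libraries. Every 9S/T-A library was above every WT library, and the log2 fold change was 0.68 ± 0.12 (adjusted p = 0.0287). This call was lost in 6 of the 12 fits that left out 1 library, where the log2 fold change was between 0.66 and 0.70. Muc2 had a median of 14967 CPM in WT and 22408 in 9S/T-A, with 5 of 6 9S/T-A libraries above the highest WT library. Its log2 fold change of 0.46 ± 0.13 did not pass in the edgeR fit of genotype alone over all 12 libraries (adjusted p = 0.223). Without the libraries numbered 7 it passed (0.51, adjusted p = 0.0416), in a fit chosen after seeing the data. That fit leaves out 9S/T-A replicate 7, which at 15244 CPM was the 9S/T-A library inside the WT range. Over all 12 libraries Muc2 passed with DESeq2 (adjusted p = 0.0148) and in edgeR with the replicate number as a term (adjusted p = 0.0282). Those 2 fits called 254 and 385 genes, against 54. Tff3, a trefoil peptide secreted with mucin, was at 3010 CPM in WT and 2059 in 9S/T-A (medians), with ranges that overlapped and an adjusted p of 0.857.

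Genes of deep crypt secretory and antimicrobial cells gave a median log2 fold change of 0.44, with 15 of 18 above 0 and 1 called, Spink4 again. Lyz1, which encodes the lysozyme of Paneth cells, was at 23.6, 30.4 and 60.1 CPM in WT and at 39.0, 52.4 and 77.8 in 9S/T-A libraries. The ranges overlapped, with a log2 fold change of 0.65 ± 0.25 (adjusted p = 0.417), and of 0.95 without the libraries numbered 7 (adjusted p = 0.0653). Mptx1, a pentraxin of the intestine, differed by 0.48 ± 0.19 and Mmp7, the matrix metalloproteinase that activates defensins in Paneth cells, by 0.86 ± 0.37 on the log2 scale. None of 34 mucin O-glycosylation genes was called. In A4gnt, the enzyme that adds terminal α1,4-linked N-acetylglucosamine to gastric-type mucins, every 9S/T-A library (117 to 196 CPM) was above every WT library (78.3 to 112 CPM), with a log2 fold change of 0.55 ± 0.13 and an adjusted p of 0.107. Among 37 genes of ER folding and the unfolded protein response, 36 were above 0 and none was called, with a median of 0.14. Eif2ak3, which encodes the ER stress kinase PERK, had the smallest p of these and a log2 fold change of 0.26 ± 0.08.

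ID proteins lack the basic region that contacts DNA, and they hold E proteins in complexes that do not bind it. Of the 7 Id and E protein genes tested, 2 rose and none fell. Id4 was at 2.81, 4.39 and 6.00 CPM in WT and at 9.15, 11.7 and 16.02 in 9S/T-A libraries. The groups did not overlap, and Id4 was 2.73-fold higher in 9S/T-A (log2 fold change 1.45 ± 0.18, adjusted p = 0.00206). Id2 was at 10.8, 13.5 and 14.7 CPM in WT and at 17.0, 18.1 and 24.2 in 9S/T-A, again without overlap. Its log2 fold change was 0.59 ± 0.11 (adjusted p = 0.0393), a call that was lost in 9 of the 12 fits that left out 1 library (0.54 to 0.62). Id3 had a log2 fold change of 0.32 ± 0.13 and did not pass the test.

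Among 28 Notch ligand, receptor and target genes, Dll3 rose and no other was called, and the median was 0.02. Dll3 encodes a divergent Notch ligand that sits mainly in the Golgi and does not activate Notch on neighbouring cells. It was at 0.272, 0.510 and 0.755 CPM in WT and at 1.10, 1.73 and 2.50 in 9S/T-A libraries. The groups did not overlap, and the log2 fold change was 1.74 ± 0.27 (adjusted p = 0.00977). Dll4, the ligand made by secretory precursors of the gut, was at a median of 62.3 CPM in WT and 58.3 in 9S/T-A (log2 fold change -0.06 ± 0.08). Hes1, a repressor that Notch induces, and Lfng, a glycosyltransferase that modifies Notch receptors, had log2 fold changes of -0.26 ± 0.09 and -0.25 ± 0.07, neither past the threshold (adjusted p = 0.406 and 0.190).

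**Figure D2:**
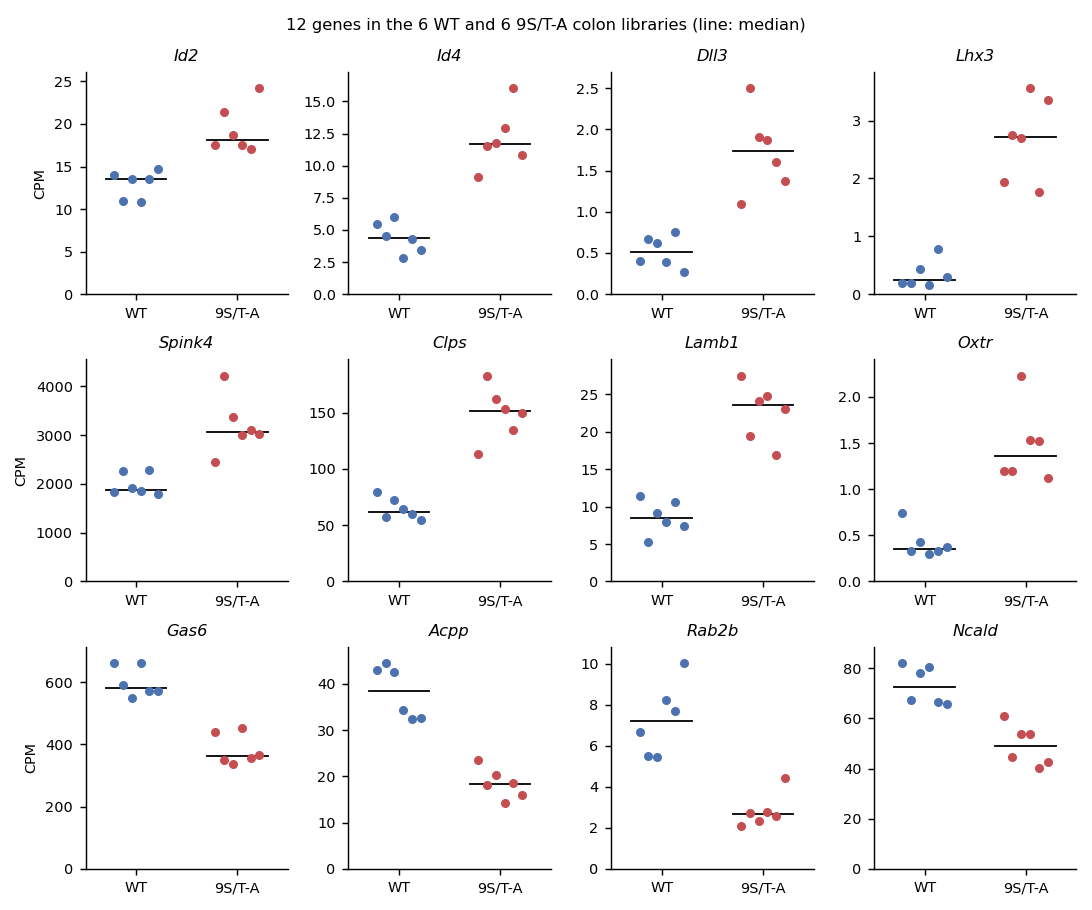
CPM (vertical axes, from 0) of 12 called genes in the 6 WT (blue) and 6 9S/T-A (red) colon libraries, each point a library and each line the median. The groups do not overlap in any of the 12 panels; the first 8 genes rose and the last 4 fell.

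Lhx3, a LIM homeobox gene of pituitary and motor neuron development, was at 0.165, 0.244 and 0.776 CPM in WT and at 1.76, 2.72 and 3.56 in 9S/T-A libraries. All 6 9S/T-A libraries were above the WT range, and Lhx3 was 7.87-fold higher (log2 fold change 2.98 ± 0.35, adjusted p = 0.00151). Gata2, a zinc finger factor of blood and neural progenitors, went from a median of 0.520 CPM to 1.66 CPM, without overlap (1.65 ± 0.26, adjusted p = 0.00992). Both genes stayed below 4 CPM in these libraries.

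Clps, which encodes colipase, the cofactor of pancreatic lipase, showed the smallest adjusted p of the protein-coding genes. It was at 54.4, 62.1 and 79.5 CPM in WT and at 113, 151 and 183 in 9S/T-A libraries. The groups were far apart, with a 2.31-fold higher level in 9S/T-A (log2 fold change 1.21 ± 0.12, adjusted p = 0.000329). Lamb1, the β1 chain of laminin in basement membranes, was at 5.23, 8.49 and 11.4 CPM in WT and at 16.9, 23.6 and 27.5 in 9S/T-A libraries, a 2.63-fold difference without overlap (adjusted p = 0.00201). Samd5, a sterile alpha motif gene, rose by 1.17 ± 0.18 on the log2 scale (adjusted p = 0.00977). Art2b, a cell-surface ADP-ribosyltransferase gene, and its neighbour Art2a-ps on chromosome 7, annotated as a polymorphic pseudogene, rose by 1.45 ± 0.19 and 1.38 ± 0.21. The 2 genes are close in sequence, and reads could be split between them.

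Oxtr, the oxytocin receptor gene, had a median of 0.352 CPM in WT and 1.36 in 9S/T-A (log2 fold change 1.81 ± 0.26, adjusted p = 0.00575). Kl, which encodes Klotho, a co-receptor for FGF23, had medians of 0.254 and 1.17 CPM (2.30 ± 0.40, adjusted p = 0.0218). Kcnh2, a voltage-gated potassium channel gene, was at 16.5 to 19.9 CPM in WT and 24.2 to 29.8 in 9S/T-A libraries, and rose by 0.61 ± 0.07 (adjusted p = 0.00182). Ptpro, a receptor tyrosine phosphatase gene, rose 2.03-fold, with 1 9S/T-A library, replicate 4, at 44.4 CPM and the other 5 at 20.7 to 27.7 CPM. Plxnd1, a semaphorin receptor gene, rose by 0.45 ± 0.07, and Mrgpre, an orphan G protein-coupled receptor gene, by 0.51 ± 0.10.

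Cobl, an actin nucleator gene, was at 44.6, 54.0 and 58.2 CPM in WT and at 62.0, 76.4 and 85.7 in 9S/T-A (log2 fold change 0.50 ± 0.09). Coro2b, a coronin gene, rose by 0.94 ± 0.14, Pdlim4, a PDZ and LIM domain gene, by 1.11 ± 0.18, and Twf2, which encodes the actin-capping twinfilin-2, by 0.50 ± 0.09. Dpysl3, a collapsin response mediator gene, rose by 0.57 ± 0.10, with overlap between the groups. The other named genes that rose were Fam3c, which encodes a secreted factor (0.72 ± 0.09), Sgtb, a co-chaperone gene (1.80 ± 0.31, with 1 9S/T-A library inside the WT range), 2210407C18Rik (1.45 ± 0.25), Ssc5d, a secreted scavenger receptor gene (0.63 ± 0.12), Parp3, an ADP-ribosyltransferase gene of DNA repair (1.17 ± 0.21), Pop1, a subunit gene of RNase P (0.57 ± 0.11), Ddx25, an RNA helicase gene (1.496 ± 0.25), and the long non-coding RNAs Gm1965 (0.61 ± 0.11) and Gm27162 (2.38 ± 0.38).

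Fewer genes fell. Acpp, which encodes a transmembrane acid phosphatase, was at 32.4, 38.5 and 44.5 CPM in WT and at 14.3, 18.4 and 23.6 in 9S/T-A libraries. The groups did not overlap, and the log2 fold change was -1.05 ± 0.13 (adjusted p = 0.00152). Rab2b, a small GTPase gene of ER to Golgi transport, was at 5.44, 7.18 and 10.03 CPM in WT and at 2.10, 2.65 and 4.41 in 9S/T-A, with a log2 fold change of -1.37 ± 0.20 (adjusted p = 0.00581). Gas6, the secreted ligand of the receptor kinases TYRO3, AXL and MERTK, was at 550, 581 and 661 CPM in WT and at 338, 362 and 452 in 9S/T-A libraries (log2 fold change -0.65 ± 0.09, adjusted p = 0.00543). Ncald, a neuronal calcium sensor gene, fell from a median of 72.7 CPM to 49.1 CPM (-0.57 ± 0.11, adjusted p = 0.0335). This call was lost in 9 of the 12 fits that left out 1 library.

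The other protein-coding genes that fell were Apol6, an apolipoprotein L gene (-1.499 ± 0.17), Crnn, which encodes cornulin of stratified epithelia (-1.43 ± 0.25), Zfp251, a zinc finger gene (-0.53 ± 0.10), Rpl29, a ribosomal protein gene (-0.44 ± 0.08), and Cyhr1 (-0.39 ± 0.07). Apol6 was at 2.45 to 4.21 CPM in WT and at 0.863 to 1.39 in 9S/T-A libraries, and its chromosome 15 neighbour Apol11b moved the other way, from 0.156 to 0.470 CPM in WT to 0.672 to 1.19 CPM in 9S/T-A. Zfp251 lost its call in every one of the 12 fits that left out 1 library, with an adjusted p of at most 0.113. Ssc5d lost it in 11 of them, Pop1, Mrgpre, Apol11b, Rpl29 and Cyhr1 in 10, Dpysl3 in 9, Parp3, Sgtb and Gm1965 in 8, and Twf2 in 7, each with an unchanged sign. The calls of Zfp251, Cyhr1, Gm1965 and H2-Eb1 were lost without the libraries numbered 7 (adjusted p = 0.0734, 0.0588, 0.0528 and 0.0580).

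Pseudogenes made up 10 of the 54 calls, 4 higher and 6 lower, and the widest differences were among them. Their share of all genes tested is not given here, so no excess can be read from this count. Gm9613 (chromosome 17, 35561923 to 35562118 in GRCm38) had 0 counts in all 6 WT libraries and 16 to 28 counts in each 9S/T-A library. Against a limit of 3 counts over the WT group it was at least 38.5-fold higher. Psmb5-ps (chromosome 11) had 40 to 117 counts in each WT library and 0 or 1 in each 9S/T-A library, 409 against 2 in all, a 225-fold difference per library count with a 95% exact interval of 61.8 to 1863 that covers counting error only. Gm15610 had 2 to 5 counts in each WT library and 62 to 98 in each 9S/T-A library, and Tma7-ps had 4 to 16 and 85 to 115. Rps3a3 was the pseudogene with the most reads, at 165, 334 and 344 CPM in WT and at 129, 145 and 164 in 9S/T-A libraries. WT replicate 6 was at 165 CPM, next to the highest 9S/T-A library, and the other 5 WT libraries were at 295 CPM or more. These counts are uncertain, since a processed pseudogene can share reads with the near-identical gene it was copied from. The genes Psmb5, Tma7 and Rps3a1 were not called: Psmb5 had a log2 fold change of 0.11 ± 0.12, Tma7 one of -0.06 ± 0.07 and Rps3a1 one of 0.04 ± 0.08. The remaining pseudogenes that fell were Gm13213 (-0.81 ± 0.12), Gm12987 (-0.80 ± 0.11), Gm17669 (-0.66 ± 0.10) and Gm13935 (-0.56 ± 0.10).

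Of all 54 called genes, chromosome 15 held 6, 0.971% of its tested genes, chromosome 9 held 7 (0.792%) and chromosome 6, where Atoh1 lies, 6 (0.778%), while chromosomes 16, 19 and X held 0. On chromosome 9, Twf2, Rpl29 and Parp3 lay between positions 106203108 and 106476949, with Twf2 and Parp3 higher and Rpl29 lower in 9S/T-A. On chromosome 15, Cyhr1, Zfp251, Apol6 and Apol11b lay between 76643395 and 77643286, 3 of them lower and Apol11b higher. On chromosome 6, the nearest called gene to Atoh1 was Gata2, 23.5 Mb away.

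Of the lists, MHC class II antigen presentation had the highest median log2 fold change. Class II molecules are αβ heterodimers that present peptides to CD4+ T cells. The invariant chain CD74 chaperones them, H2-DM loads the peptide, and CIITA, the class II transactivator, is recruited to promoters through the X and Y boxes. The Y box is an inverted CCAAT motif, and the stretches of the H2-Aa and H2-Eb1 promoters that hold it are printed below (RefSeq, build GRCm38.p6) because both genes were called. Cd74, which was also called, had no promoter entry in the table used. Capitals mark CTGATTGG, which lies 51 and 62 bases before the RefSeq start. H2-Aa is read on the minus strand, chr17:34287837-34287904, and H2-Eb1 on the plus strand, chr17:34305775-34305842.

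H2-Aa: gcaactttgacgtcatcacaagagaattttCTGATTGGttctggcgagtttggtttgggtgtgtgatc
H2-Eb1: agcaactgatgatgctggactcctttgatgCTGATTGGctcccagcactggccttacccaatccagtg

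CTGATTGG was present on either strand in 4.10% of 32851 promoters of 300 bases and in 5.94% of those of the genes tested. It was held by 4 of the 9 class II list genes with a promoter entry (H2-Aa, H2-Eb1, H2-Eb2 and H2-Oa) and by 9 of the 40 interferon response genes with one.

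H2-Aa, which encodes the α chain of I-A, was at 0.293, 1.36 and 2.53 CPM in WT and at 1.93, 19.7 and 149 in 9S/T-A libraries. Of the 9S/T-A libraries, 5 were above the WT range, replicate 6 the highest, and replicate 3 was inside it. The log2 fold change was 4.80 ± 0.86 (adjusted p = 0.0297). H2-Eb1, the β chain of I-E, was at 0.940, 1.85 and 2.49 CPM in WT and at 1.13, 16.3 and 81.8 in 9S/T-A, with replicate 3 again inside the WT range. Its log2 fold change was 3.82 ± 0.72 (adjusted p = 0.0379). Cd74 was at 2.16, 6.92 and 11.1 CPM in WT and at 6.23, 101 and 606 in 9S/T-A libraries, and its log2 fold change was 4.56 ± 0.81 (adjusted p = 0.0281). The levels differed widely between the 9S/T-A libraries, with replicate 3 inside the WT range for all 3 genes and replicate 6 the highest.

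H2-Ab1, the β chain of I-A, was also lowest in replicate 3 and highest in replicate 6 of 9S/T-A, and here all 6 9S/T-A libraries (20.04 to 205 CPM) were above the WT range (7.80 to 17.5 CPM). Its log2 fold change of 2.37 ± 0.48 had an adjusted p of 0.0588. H2-DMa and H2-DMb2 had log2 fold changes of 2.32 ± 0.47 and 2.27 ± 0.46, and Ciita one of 3.45 ± 0.81, with adjusted p-values of 0.0588, 0.0588 and 0.115. Of the 9 class II genes tested, 3 rose, none fell, and 8 were above 0, with a median of 2.37. Without the libraries numbered 7 the median was 2.40, and H2-Aa and Cd74 were called (adjusted p = 0.0416 for both) while H2-Eb1 was not. The calls of H2-Aa and Cd74 were lost without 9S/T-A replicate 4 (adjusted p = 0.0528 for both) and without each of the 6 WT replicates (at most 0.0959), with log2 fold changes of 4.38 to 5.05. That of H2-Eb1 was lost without 9S/T-A replicates 4 and 5 and each WT replicate (0.0520 to 0.102). Without 9S/T-A replicate 6, the library with the most class II, all 3 genes were called with lower log2 fold changes, 3.60 for H2-Aa, 3.52 for Cd74 and 2.93 for H2-Eb1, and the median of the list was 1.76.

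**Figure D3:**
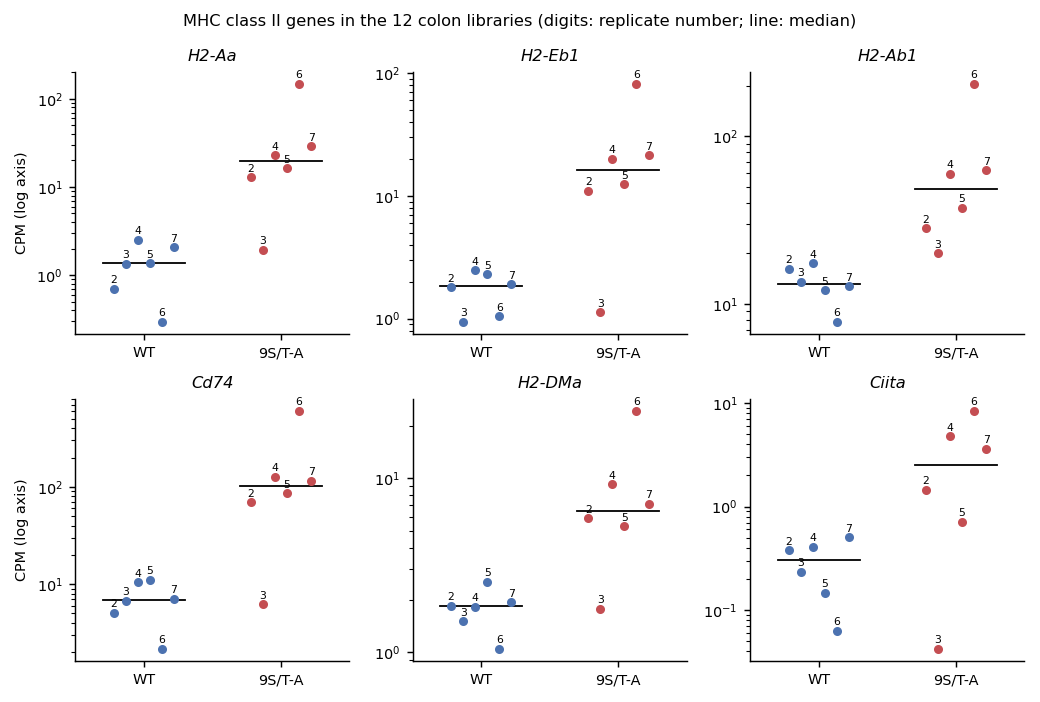
CPM on log axes of 6 class II genes in each colon library, WT in blue and 9S/T-A in red, with the replicate number beside each point and a line at the median. In each panel 9S/T-A replicate 6 is the highest library and replicate 3 the lowest of its group; H2-Ab1 is the gene whose groups do not overlap.

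Most markers of leukocytes, some kinds of which express class II, were near 0 in both genotypes. Summed over 26 leukocyte genes, the level was 8.78 to 12.0 CPM in WT and 6.27 to 11.3 in 9S/T-A libraries, 23 of the 26 were under 1 CPM in every library, and 9S/T-A replicate 6, the library with the most class II, was at 9.16 CPM. Itgam (CD11b), most of that sum, was at 5.37 to 8.18 CPM in WT and at 4.69 to 7.47 in 9S/T-A (log2 fold change -0.21 ± 0.13, adjusted p = 0.741). Ptprc (CD45) was at no more than 1.56 CPM, Cd79a of B cells at no more than 0.117 CPM, and Itgax (CD11c) at no more than 0.156 CPM. Csf1r, another leukocyte marker, peaked at 0.355 CPM in 9S/T-A replicate 6, above its WT maximum of 0.129 CPM. Its group median was lower for 9S/T-A, at 0.00961 against 0.0504 CPM. Whether the Csf1r level goes with the class II level of replicate 6 was not tested. The summed level of the class II list was 77.3 to 126 CPM in WT and 107 to 1222 in 9S/T-A.

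Interferon response genes had a median log2 fold change of 0.55, with 50 of 51 above 0. None passed the threshold, and 27 had an unadjusted p under 0.05 and were higher, against the 4.37% of all genes. H2-Q7, a non-classical class I gene, was at 12.1, 15.6 and 17.3 CPM in WT and at 22.1, 31.0 and 104 in 9S/T-A libraries, without overlap (log2 fold change 1.51 ± 0.32, adjusted p = 0.0708). Gbp6, an interferon-inducible GTPase gene, differed by 1.31 ± 0.35, and Psmb8, a subunit gene of the immunoproteasome, by 1.13 ± 0.31. The summed level of the list was 2193 to 2627 CPM in WT and 2553 to 4783 in 9S/T-A libraries, replicate 6 the highest. The list's median was 0.39 without 9S/T-A replicate 6 and 0.67 without 9S/T-A replicate 3.

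No gene of the cell cycle lists was called in the fit without the replicate number as a term. Of 40 genes of DNA replication and S phase, 39 were above 0 with a median log2 fold change of 0.33, and 15 had an unadjusted p under 0.05. Of 41 genes of G2 and mitosis, 40 were above 0 with a median of 0.39, and 12 had an unadjusted p under 0.05, all higher. Mki67, the marker of cycling cells, was at 33.7, 45.0 and 64.7 CPM in WT and at 42.7, 68.0 and 82.9 in 9S/T-A libraries. The ranges overlapped, 4 9S/T-A libraries were above the WT range, and the log2 fold change was 0.47 ± 0.17 (adjusted p = 0.409). Clspn, a checkpoint adaptor gene at the replication fork, differed by 0.69 ± 0.23, and Foxm1, a transcription factor of G2 genes, by 0.51 ± 0.18 (adjusted p = 0.343 and 0.374). Among the G1 genes, Cdkn1c, which encodes the CDK inhibitor p57, was at 4.77 to 7.47 CPM in WT and 3.63 to 4.98 in 9S/T-A libraries (log2 fold change -0.51 ± 0.12, adjusted p = 0.130). The summed level of the G2 and mitosis list was 401 to 714 CPM in WT and 434 to 832 in 9S/T-A libraries.

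Most enteroendocrine and tuft cell genes lay below 0, and none was called in the fit without the replicate number as a term. Of 16 enteroendocrine transcription factors, 15 were below 0, with a median of -0.43. Pax4, a factor of endocrine specification, was at 0.758, 1.01 and 1.91 CPM in WT and at 0.423, 0.558 and 0.789 in 9S/T-A libraries, with a log2 fold change of -1.03 ± 0.26 (adjusted p = 0.146). Fev, of serotonin-producing cells, differed by -0.86 ± 0.24 and Neurod1 by -0.79 ± 0.31. Of 21 hormone and granule genes, 18 were below 0, with a median of -0.53. Chga, which encodes chromogranin A, was at 18.4, 30.7 and 33.9 CPM in WT and at 14.4, 16.4 and 28.2 in 9S/T-A (log2 fold change -0.62 ± 0.19, adjusted p = 0.292). Against the list, Tac1, the substance P precursor gene, differed by 0.97 ± 0.20 and Sct, the secretin gene, by 0.92 ± 0.23 (adjusted p = 0.0627 and 0.140). Tac1 was past the threshold without the libraries numbered 7, at 1.18 (adjusted p = 0.0116). Of 24 tuft cell genes, 21 were below 0 with a median of -0.38. Plcg2, a phospholipase gene of the taste-like cascade of tuft cells, differed by -0.30 ± 0.09, and Alox5ap, of leukotriene synthesis, by -0.89 ± 0.29.

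Stem cell and absorptive genes centred near 0. Of 24 crypt stem cell genes, 12 were above and 12 below 0, with none called. Lgr5, the stem cell marker, had medians of 13.1 CPM in WT and 10.02 in 9S/T-A (log2 fold change -0.34 ± 0.24, adjusted p = 0.830). Of 14 regeneration genes none was called. Ly6a (Sca-1), which marks regenerating epithelium, was at 14.6, 17.7 and 21.4 CPM in WT and at 19.9, 29.4 and 58.9 in 9S/T-A libraries (log2 fold change 0.99 ± 0.24, adjusted p = 0.140). Colonocyte genes had a median of 0.10, and Guca2b, the uroguanylin gene, did not overlap between the groups, at 36.2 to 54.9 CPM in WT and 56.8 to 106 in 9S/T-A (0.55 ± 0.15, adjusted p = 0.189). Rassf4 had a log2 fold change of 0.00 ± 0.13. The lists of EGF family, Wnt, Hox, cholesterol synthesis, stromal, mitochondrial and dissociation stress genes had medians between -0.22 and 0.13, and none of their members was called. Hspb1, a small heat shock protein gene of the stress list, differed by 0.98 ± 0.21 (adjusted p = 0.0658), while the list's median was -0.16.

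**Figure D4:**
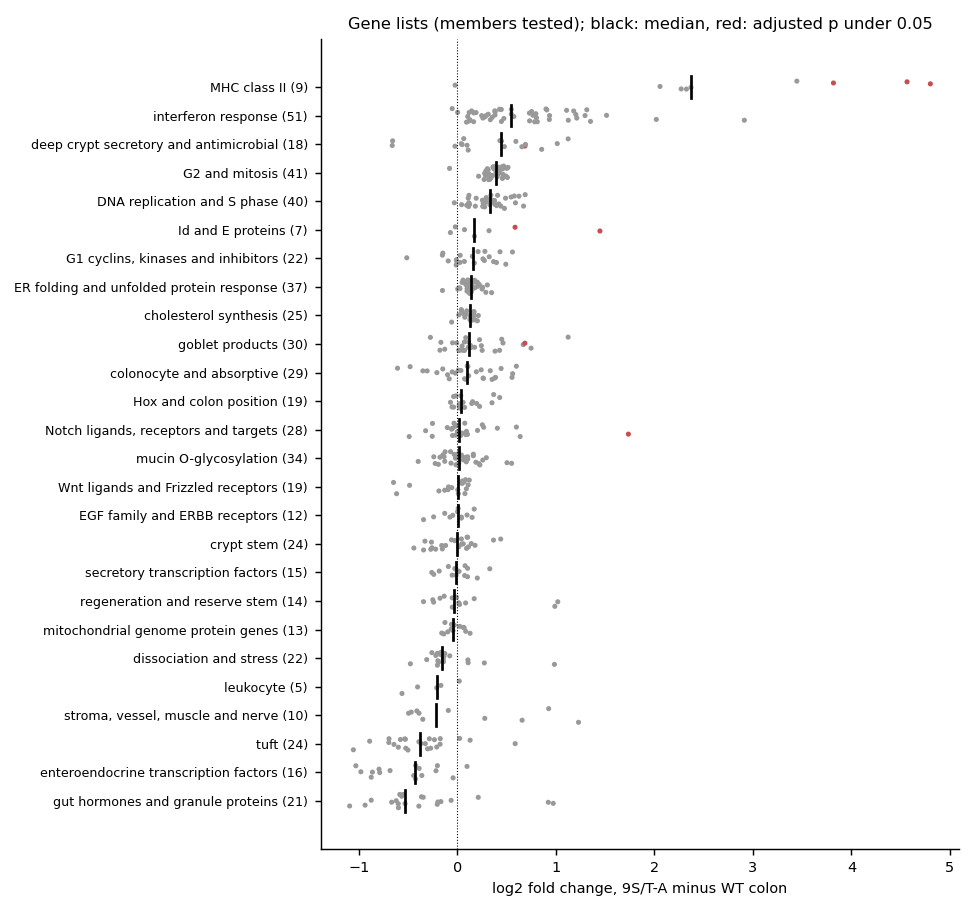
Each point is the log2 fold change of a list member in colon, 9S/T-A minus WT, with the list median as a black line and called genes in red; the number of members tested is in brackets. The class II list lies farthest to the right with a median of 2.37, and the hormone list farthest to the left at -0.53.

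The colon difference was set beside that in small intestinal libraries sorted in the same way, in a fit over all 24 libraries. Of the 54 genes called in colon, 41 had the same sign in small intestine and 20 passed the threshold there, against 2.9% of 17953 genes. The difference between the tissues itself was called for 74 genes (0.412%), 11 of them among the 54. This fit takes the 24 libraries as independent, although colon and small intestinal libraries may share mice. Id4 (1.73 ± 0.16 in small intestine), Id2 (0.72 ± 0.11), Dll3 (1.34 ± 0.22) and Kcnh2 (0.83 ± 0.12) rose in both tissues. Of the pseudogenes, Gm15610, Tma7-ps and Gm9613 also rose past the threshold in small intestine. Psmb5-ps, Rps3a3, Gm12987, Gm13213, Gm13935 and Gm17669 fell past it there, and Art2a-ps did not pass (-0.01 ± 0.30). The class II genes were among the 11: H2-Aa had a log2 fold change of -2.08 ± 0.87 in small intestine, H2-Eb1 one of -1.68 ± 0.72 and Cd74 one of -2.26 ± 0.80, none past the threshold there, and the colon minus small intestine differences were 6.86 ± 1.28, 5.47 ± 1.06 and 6.80 ± 1.18 (adjusted p = 0.0111, 0.0141 and 0.00653). Lamb1 (0.04 ± 0.19 in small intestine), Clps (0.31 ± 0.13), Samd5 (-0.31 ± 0.18) and Fam3c (0.16 ± 0.08) differed between the tissues as well, with adjusted p-values of 0.0205, 0.0305, 0.00653 and 0.0465. Oxtr, Apol11b and Gm27162 were below 0 in small intestine (-1.61 ± 0.56, -1.20 ± 0.35 and -0.67 ± 0.23) and higher in colon, and Ncald was above 0 there (0.21 ± 0.10) and lower in colon. The G2 and mitosis list had a median of -0.39 in small intestine, with 40 of 41 members below 0, and 38 members had an unadjusted p under 0.05 for the difference between tissues, none of them called. Mptx2, Sval1 and Ceacam10, which had the smallest adjusted p for the difference, had log2 fold changes of 0.45, -0.29 and -0.04 in colon, none called.

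**Figure D5:**
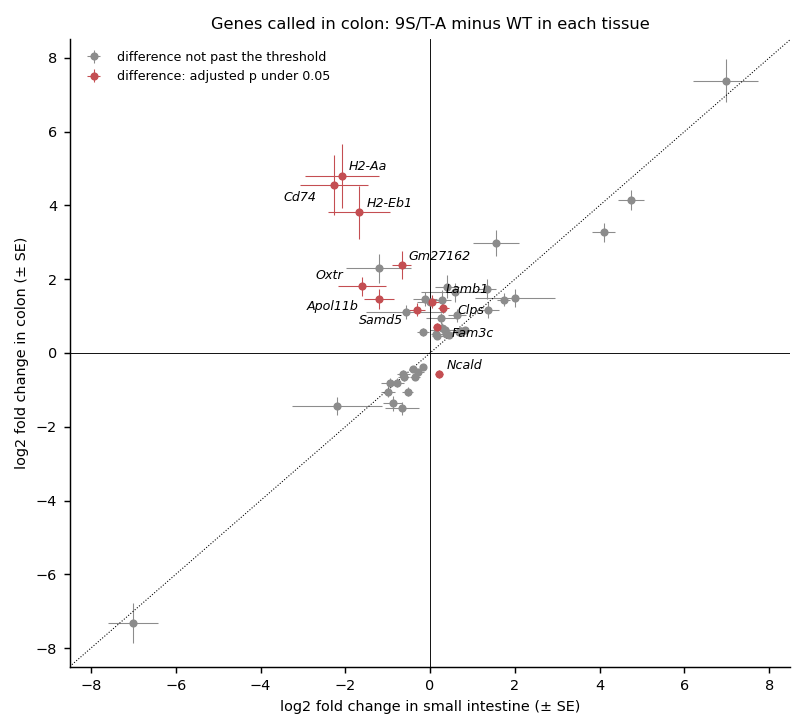
The log2 fold change in colon (vertical) against that in small intestine (horizontal) for 53 of the 54 genes called in colon, with standard errors as bars; red points mark genes whose difference between tissues was called. The 3 class II genes lie at the upper left, above 0 in colon and below 0 in small intestine.

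The genotype effect was also compared between the sexes within colon. No gene was called for that difference (0% of 16997, and 321 genes at an unadjusted p under 0.05 in edgeR, against 2 genes called by DESeq2). Apobec1, Tnip3 and AW112010 had the smallest p-values, with log2 fold changes of -0.22, -0.39 and 0.07 in females and 0.72, 0.69 and 1.07 in males. Class II genes had a median of 1.90 in females and 3.02 in males, and interferon response genes 0.23 and 0.69, with 44 and 48 of 51 above 0. The library highest in the summed level of both lists, 9S/T-A replicate 6, is labelled male.

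E boxes are the sites that ATOH1 binds with its E protein partners. The letters CAGCTG, which read the same on both strands, were present in 16.3% of all promoters of 300 bases, in 15.0% of those of the genes tested, and in 11 of the 31 called genes with a promoter entry: Apol11b, Art2b, Coro2b, Ddx25, Dll3, H2-Aa, H2-Eb1, Id2, Parp3, Rab2b and Samd5. The letters CAGATG, searched on both strands, were in 17.2% of all promoters, in 11.8% of those of the genes tested, and in 3 of the 31 (Apol11b, Gas6 and H2-Aa). The stretches below show the CAGCTG, in capitals, of the Notch ligand gene Dll3, of Id2, and of Rab2b as a gene that fell (RefSeq, GRCm38.p6, all on the minus strand): chr7:28301786-28301822, chr12:25096253-25096318 and chr14:52279466-52279531.

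Dll3: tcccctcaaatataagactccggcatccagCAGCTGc
Id2: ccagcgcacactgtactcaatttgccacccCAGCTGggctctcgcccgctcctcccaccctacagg
Rab2b: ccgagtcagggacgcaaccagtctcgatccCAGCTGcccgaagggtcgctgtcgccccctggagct

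The letters lie 7, 196 and 106 bases before the RefSeq start of Dll3, Id2 and Rab2b. The gene models of the count files reach farther upstream for Dll3 and Rab2b, so both stretches lie inside the gene as counted. They occur in genes that rose and in a gene that fell, and no binding was measured in these libraries.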

How the data were processed

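Colon libraries were made from sorted EpCAM+ tdTom+ cells with a stranded mRNA kit and single-end sequencing. The authors aligned reads to GRCm38.p3 with TopHat2 2.1.1 and deposited raw counts per gene from featureCounts 1.5.2 (strand-specific); reads shared by near-identical genes can be lost or misplaced at this step. The deposited counts of 45513 genes were used as they stand, and 98.15% of the identifiers were named from GENCODE M21. Totals were 44744217 to 65199866 counts per library, and intervals and floors cover counting error only.

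Groups came from the sample labels. Genes were filtered with filterByExpr, scaled with TMM and tested with edgeR 4.0.16 (quasi-likelihood, Benjamini-Hochberg adjusted p under 0.05) in R 4.3.3, and "called" means past that threshold. The 12 colon libraries were fitted alone; the difference between tissues came from a fit over 24 libraries, and that between sexes from an interaction term. Errors are standard errors. DESeq2 1.42.0, other scalings and filters, sex as a covariate, the replicate number as a block and leaving out each library were tried as alternatives, and leaving out both libraries numbered 7 was chosen after seeing the data. Scripts were tested on simulated data. Tables were handled with Python 3.11.15 and pandas 2.3.3.

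The comparison, its members and the gene lists were chosen with earlier results of these data known. Named genes are the called genes that moved most, 10 upward and 10 downward, out of those with a mean log2 CPM of at least 1 and all 6 9S/T-A libraries on one side of the WT mean, 10 genes fixed by name, list members that were called or had the 3 smallest p-values in their list, and the 3 smallest p-values of each interaction; other called genes were named after their values were seen. One called gene is not reported here. None of the 30 within-group pairs of libraries held identical values.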

Additional observations from a re-analysis of the deposited data

Results flagged for a closer look

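In 125 groups of 6 libraries, 14 held a library far from the other 5. The rule flags about 1 in 20 groups when values are independent and normally distributed. Many of these genes were named for their results, and some vary together, so the 2 rates cannot be compared as a test. In 9S/T-A replicate 6, H2-Aa was at 149 CPM against at most 29.3 in the other 5, Cd74 at 606 CPM against at most 127, and H2-Eb1 at 81.8 CPM against at most 21.5. In 9S/T-A replicate 7, Muc2 was at 15244 CPM, below 21869 to 23876 in the others, and Rab2b was at 4.41 CPM. In 9S/T-A replicate 4, Ptpro was at 44.4 CPM and Oxtr at 2.23 CPM, and in replicate 3 Chga was at 28.2 CPM. Among WT libraries, replicate 2 had Kl at 0.587 CPM and Oxtr at 0.739 CPM, replicate 6 had 2210407C18Rik at 35.2 CPM and Rps3a3 at 165 CPM, and replicate 7 had Sgtb at 4.20 CPM and Parp3 at 9.49 CPM. In Sgtb, Parp3, Kl, Oxtr, 2210407C18Rik and Rps3a3 the outlying WT library was the one nearest to the 9S/T-A group.

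The genotype effect differed between colon and small intestine for 11 called genes by edgeR's interaction test. As colon minus small intestine log2 fold changes, the differences were 6.86 for H2-Aa, 6.80 for Cd74, 5.47 for H2-Eb1, 3.39 for Oxtr, 3.02 for Gm27162, 2.64 for Apol11b, 1.47 for Samd5, 1.34 for Lamb1, 0.877 for Clps, 0.533 for Fam3c and -0.802 for Ncald.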

How the results depend on the processing

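The 54 calls in colon became 90 without a filter on low counts, 254 with DESeq2, 89 with sex as a covariate, 103 in the fit over all 24 libraries and 109 at an adjusted p under 0.1, and 30 to 72 with 1 library left out. Library totals without TMM gave 51 calls and other size factors 56. Of 1483 values of called genes under alternatives, 242 lost the call and 0 changed sign; the cause was not tested. For the difference between tissues, 74 calls became 257 with DESeq2 and 136 at an adjusted p under 0.1, and 50 to 105 with 1 library left out. For that between sexes, 0 became 2 with DESeq2.

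Replicate numbers are shared by the genotypes. Deviations of same-numbered libraries correlated at 0.0253 (number 6) to 0.770 (number 7), with a mean of 0.316 against -0.0572 for other pairs, and 8 of 12 libraries correlated best with their own number, a hint from the data that the numbers may mark something shared. Same-numbered libraries also have the same labelled sex, female for 2, 5 and 7 and male for 3, 4 and 6. Other pairs include libraries of different sex, and the part of sex in these correlations was not tested. The labels say no more about the numbers, and pairing was accepted only if all 6 correlations were over 0.1, which 5 were. The common coefficient of variation between libraries in edgeR was 20.4% without the replicate block and 11.7% with it. With the replicate block 385 of the 16997 genes tested were called in colon, 254 higher and 131 lower, all 54 among them. For the difference between tissues 342 were called, and 0 for that between sexes. The block called genes in lists that had none or fewer without it. Higher were 12 of 40 genes of S phase, 15 of 41 of G2 and mitosis and 7 of 9 of MHC class II. So were 3 of 30 goblet products, 3 of 34 mucin O-glycosylation and 2 of 18 deep crypt secretory genes. Interferon response gave 2 of 51, ER folding 1 of 37 and stress 1 of 22. Lower were 7 of 24 tuft genes, 2 of 16 enteroendocrine transcription factors and 1 of 24 crypt stem cell genes. The 21 hormone and granule genes gave 2 higher and 3 lower, and the 22 G1 genes 2 and 1. The 29 colonocyte genes gave 3 and 1, and the 28 Notch genes 1 and 1. A count of 1 or 2 is too small to describe a list. Mki67 was higher in 6 of 6 same-numbered pairs (edgeR adjusted p = 0.00175). The block with number 2, 3, 4, 5, 6 or 7 left out gave 211, 202, 127, 225, 311 and 148 calls.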
